A study of Bos taurus with 27 samples.

Results

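The Hippo pathway is a chain of kinases that restrains growth and reads cell contact and polarity. When the chain is active, the kinases LATS1 and LATS2 phosphorylate the co-activators YAP1 and TAZ, the latter encoded by WWTR1, and keep them out of the nucleus. When it is inactive, the co-activators enter the nucleus and bind the TEAD transcription factors. In the mouse embryo this switch separates polar outer cells, which become trophectoderm, from inner cells, and NF2 and the angiomotins help to activate the kinases in the inner cells.

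Abundance of the transcripts of 10 genes was described in blastocysts of cattle: the co-activators YAP1 and WWTR1, the DNA-binding factors TEAD1, TEAD2, TEAD3 and TEAD4, the kinases LATS1 and LATS2, the junction scaffold AMOTL2 and the membrane-linked regulator NF2. They were chosen for their place in the pathway and matched by symbol among the 32637 genes of a table of raw read counts, and all 10 were among the 12310 genes retained at a CPM of 1 or more in at least 12 pools. CPM scales the reads on a gene to 1e+06 reads counted in the pool.

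The study asked whether the maturity of the follicle that supplies follicular fluid to a maturing oocyte leaves a mark on the transcriptome of the embryo. Oocytes from abattoir ovaries matured in medium with fluid from preovulatory follicles that were classed as of greater or lesser maturity by estradiol, and were fertilized with semen of 1 bull. Each of the 27 pools analysed joined the RNA of 2 expanding or expanded blastocysts, graded stage 7 and quality 1, from the same treatment and replicate. Which treatment or replicate a pool came from was not assigned here, so greater and lesser maturity were not compared, and levels are given over 27 single pools as the lowest, the median and the highest value.

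Total counts lay between 10517606 and 44253564, around a median of 22293594, so that 1 CPM stood for between 10.5 and 44.3 counts. A count of 3, taken as the floor of detection, equalled between 0.0678 and 0.285 CPM, and none of the 10 genes reached that floor in a pool. All 12 trophectoderm markers examined were retained and summed to between 16968 and 41866 CPM, led by the keratin KRT8 at a median of 18607 CPM. Of the epiblast markers 8 of 10 were retained, with a summed level between 370 and 1316 CPM, and of the hypoblast markers 7 of 10, with a sum between 84.9 and 531 CPM. The hypoblast markers were led by GATA6 at a median of 211 CPM. Those not retained were GATA4, with a median of 0.896 CPM, and SOX17 and FOXA2, each with a median of 0 CPM. Markers of other cells were low: those of cumulus or granulosa cells summed to between 12.5 and 61.6 CPM with 4 of 8 retained, those of leukocytes to between 10.2 and 69.6 CPM with 4 of 6 retained, and those of sperm to between 0.0326 and 19.99 CPM with 1 of 4 retained (median sum 2.23 CPM).

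Transcripts of both co-activators were abundant, and WWTR1 exceeded YAP1 in 27 of 27 pools. WWTR1 (chromosome 1, 118496458 to 118645507 in ARS-UCD2.0) ranged from 80.9 CPM in pool 31 to 196 CPM in pool 35, with a median of 116 CPM. YAP1 (chromosome 15, 6499364 to 6634778) ranged from 23.7 CPM in pool 32 to 99.4 CPM in pool 33, with a median of 72.9 CPM. YAP1 was low in a pair of pools that stood apart, pool 32 and pool 9 at 24.7 CPM, while the middle of the distribution was narrow, between quartiles of 62.2 and 76.9 CPM. WWTR1 did not follow YAP1 in pool 32, where it reached 163 CPM.

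Of the TEAD genes, which encode the proteins that carry the co-activators to DNA, TEAD1 was the most counted in every pool. TEAD1 (chromosome 15, 39740865 to 40015346) ranged from 18.6 CPM in pool 15 to 55.9 CPM in pool 33, with a median of 31.0 CPM. TEAD4 (chromosome 5, 106768119 to 106834851), the member that mouse embryos need to form trophectoderm, ranged from 6.54 CPM in pool 9 to 30.3 CPM in pool 35, with a median of 17.9 CPM. Its value in pool 9 lay well under the next lowest, 12.5 CPM in pool 15.

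TEAD3 and TEAD2 were lower at the median, and they varied little for genes of their abundance. TEAD3 (chromosome 23, 9433297 to 9456466) ranged from 7.09 CPM in pool 9 to 18.8 CPM in pool 44, with a median of 14.2 CPM. TEAD2 (chromosome 18, 55815643 to 55841617), the paralogue known from early mouse embryos beside TEAD4, ranged from 6.21 CPM in pool 12 to 19.9 CPM in pool 33, with a median of 12.6 CPM. Set among 1231 genes of similar abundance, the coefficient of variation over pools of TEAD3 was at percentile 8.53 and that of TEAD2 at percentile 14.9, whereas that of WWTR1 was at percentile 82.8 among the genes of its own abundance.

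The kinases differed from each other in level and in spread. LATS2 (chromosome 12, 35649270 to 35700350) ranged from 5.37 CPM in pool 9 to 20.7 CPM in pool 45, with a median of 14.1 CPM, and its second lowest value, 7.05 CPM, was in pool 32. LATS1 (chromosome 9, 86860562 to 86897588) had the lowest median of the 10 genes, 5.11 CPM, and the widest range, from 1.17 CPM in pool 5 to 10.7 CPM in pool 14. The highest LATS1 value was 9.11 times the lowest, against 2.42 times for WWTR1, the smallest such range. LATS1 rested on 28 to 314 reads per pool. Its coefficient of variation was at percentile 46.0 among the 1231 genes of its own abundance, so its spread was ordinary for its level.

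The upstream members were NF2 and AMOTL2. NF2 (chromosome 17, 68758705 to 68833311), the merlin protein that brings LATS kinases to the membrane, ranged from 32.6 CPM in pool 5 to 102 CPM in pool 14, with a median of 53.4 CPM. The value of pool 14 was far from the next, 69.2 CPM in pool 45. AMOTL2 (chromosome 1, 134947984 to 134965901), an angiomotin that binds YAP1 at junctions and is also a known YAP1 target, ranged from 5.09 CPM in pool 9 to 25.6 CPM in pool 14, with a median of 15.8 CPM.

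**Figure D1:**
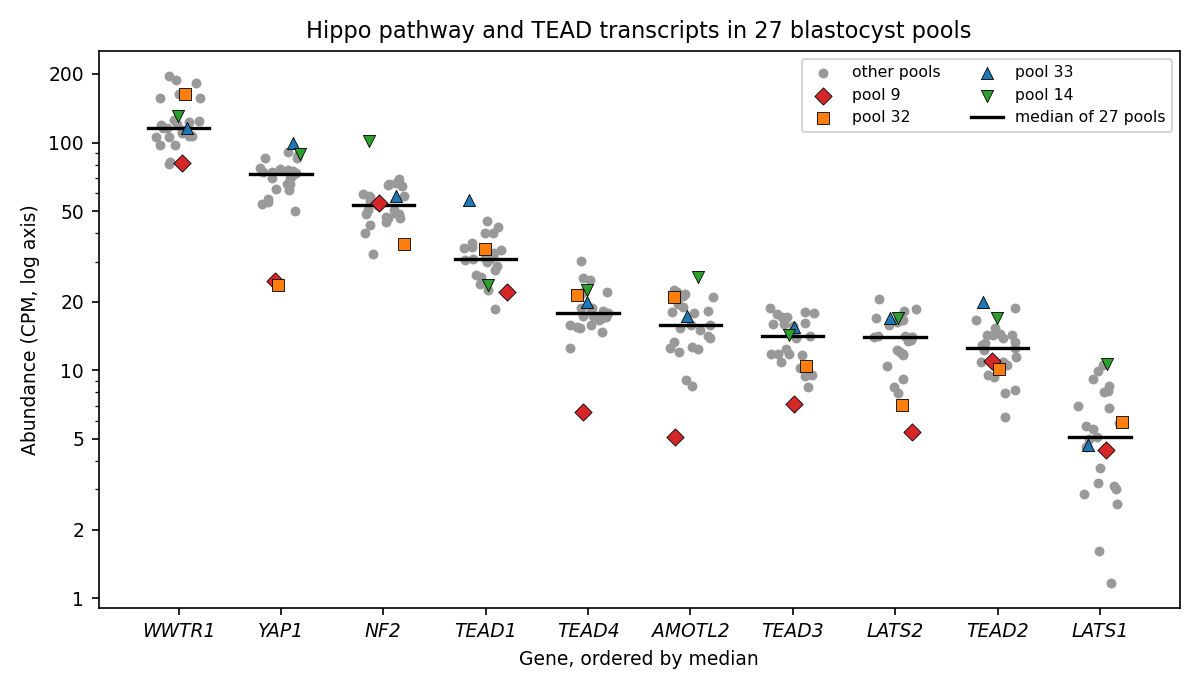
CPM of the 10 genes in each of 27 pools on a log axis, with a bar at the median and pools 9, 14, 32 and 33 marked. WWTR1 is highest with a median of 116 CPM and LATS1 lowest with 5.11 CPM, and pool 9 lies at the bottom for TEAD4, AMOTL2, TEAD3 and LATS2.

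The order held in most pools at its top and at its bottom and less often in its middle. NF2 exceeded TEAD1 and TEAD1 exceeded TEAD4 in 27 of 27 pools, YAP1 exceeded NF2 in 22, and TEAD2 exceeded LATS1 in 24. Between TEAD4 and TEAD2 neighbours were close: TEAD4 exceeded AMOTL2 in 19 pools, AMOTL2 exceeded TEAD3 in 18, TEAD3 exceeded LATS2 in 15 and LATS2 exceeded TEAD2 in 16. TEAD3 and LATS2 changed places when CPM was calculated from TMM library sizes or DESeq2 size factors, and the other 8 genes kept theirs. The libraries were read near the poly(A) tail. CPM was not divided by gene length, so the order is of CPM rather than of levels per length.

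Differences between pools were larger than counting error for all 10 genes, with a chi-square per degree of freedom between 17.9 for TEAD3 and 202 for WWTR1. Reads are not independent molecules in amplified libraries, so intervals and floors given here cover counting error only. In whole embryos, fewer cells of a type and less RNA per cell cannot be told apart.

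Shares between paralogues do not depend on how pools are scaled to each other, and they are given with 95% Wilson intervals. YAP1 contributed a median of 36.3% of the reads on YAP1 and WWTR1 and never exceeded 50%. The share was lowest in pool 32 at 12.7% (11.5 to 13.9), second lowest in pool 9 at 23.3% (21.3 to 25.5), and highest in pool 42 at 48.2% (47.0 to 49.4). Pool 32 therefore stood apart from pool 9: both were low in YAP1, but summed YAP1 and WWTR1 was at its lowest of 106 CPM in pool 9, against a median of 189 CPM over pools. LATS1 contributed a median of 27.5% of the reads on the LATS pair, between 10.2% (7.39 to 14.0) in pool 41 and 47.4% (42.8 to 52.0) in pool 15, and stayed under LATS2 in 27 of 27 pools.

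Within the TEAD family the make-up was kept in its first place and varied in its last. TEAD1 held a median of 41.9% of TEAD reads, between 30.5% in pool 14 and 50.2% in pool 33. TEAD4 held a median of 23.3%, between 14.0% in pool 9 and 35.5% in pool 1. TEAD3 held a median of 17.9%, and TEAD2 a median of 16.3%. The lowest of the 4 was TEAD2 in 19 pools, TEAD3 in 7 and TEAD4 in 1. Summed over the 4 genes, TEAD abundance had its median at 76.5 CPM and ran from 46.7 to 111 CPM.

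**Figure D2:**
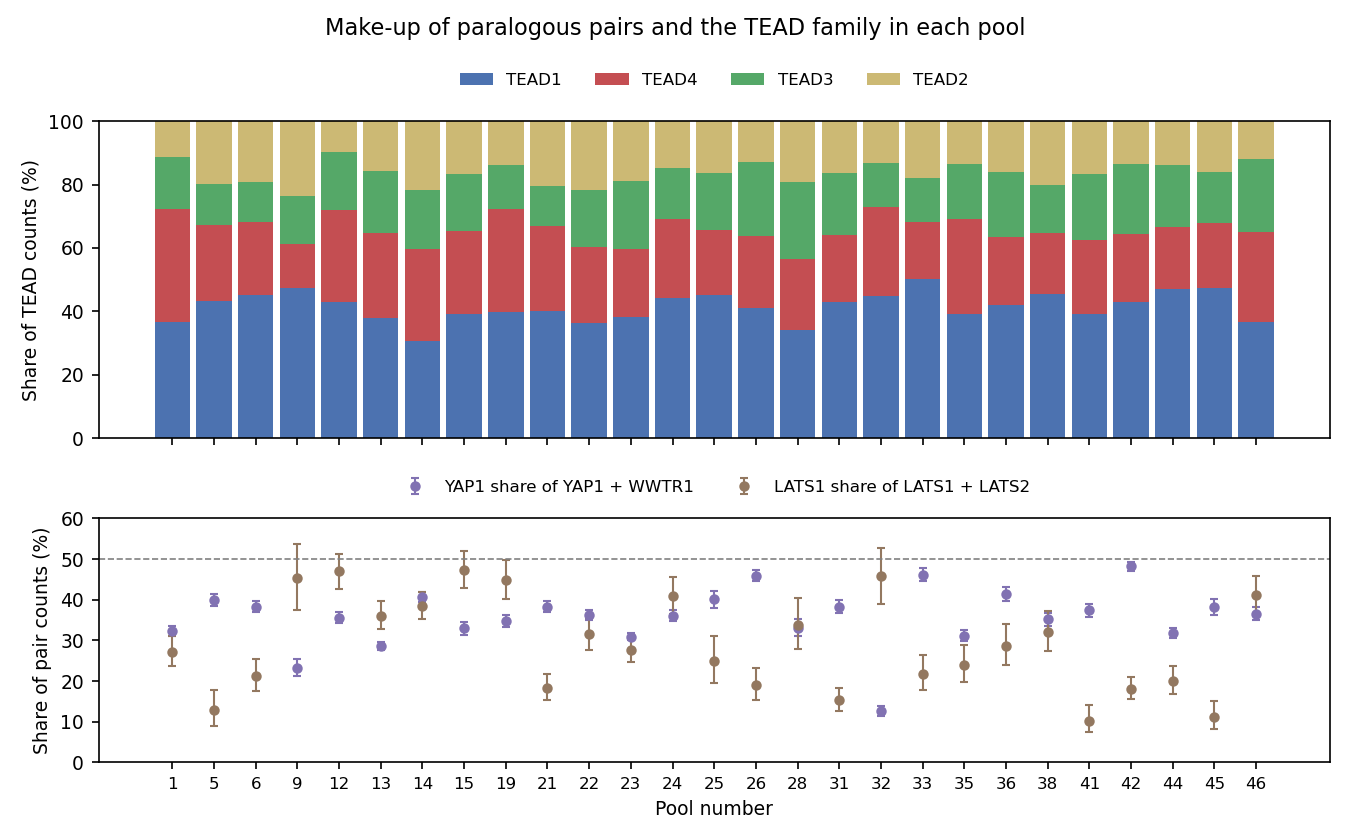
Top, share of each TEAD gene in the reads on the 4 TEAD genes (%), by pool. Bottom, share of YAP1 in YAP1 and WWTR1 and of LATS1 in LATS1 and LATS2 (%), with 95% Wilson intervals and a dashed line at 50%; no share of YAP1 or LATS1 passes the line, and YAP1 is lowest in pool 32 at 12.7%.

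Pool 9 was low in most of the 10 genes at once. It was the lowest pool for TEAD4, AMOTL2, TEAD3 and LATS2, second lowest for YAP1, WWTR1 and TEAD1, and below the median for 9 of the 10, with NF2 at 54.2 CPM the exception. The median log2 ratio of the 10 genes to their own medians was -0.76 in pool 9, against -0.05 over all retained genes of that pool. Pool 9 was also the lowest pool for 11.6% of all retained genes. It had the lowest hypoblast score, 3.35 against a median of 4.65 (mean log2(CPM + 1) of the retained markers), and the highest summed leukocyte markers, 69.6 CPM against a median of 24.7 CPM. The part of these differences in the low values was not tested.

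Other pools were high in several of the genes. Pool 33 was the highest for YAP1, TEAD1 and TEAD2, pool 14 for NF2, AMOTL2 and LATS1, and pool 35 for WWTR1 and TEAD4. Over all retained genes pool 14 was the highest for 8.18%, pool 33 for 5.58% and pool 35 for 5.48%. Pool 38 was at or above the median for all 10 and above the upper quartile for 7, against 29.4% of all retained genes. In pool 15, 6 of the 10 were below the lower quartile, against 40.9% of all retained genes, while LATS1, at 10.5 CPM, was second highest.

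**Figure D3:**
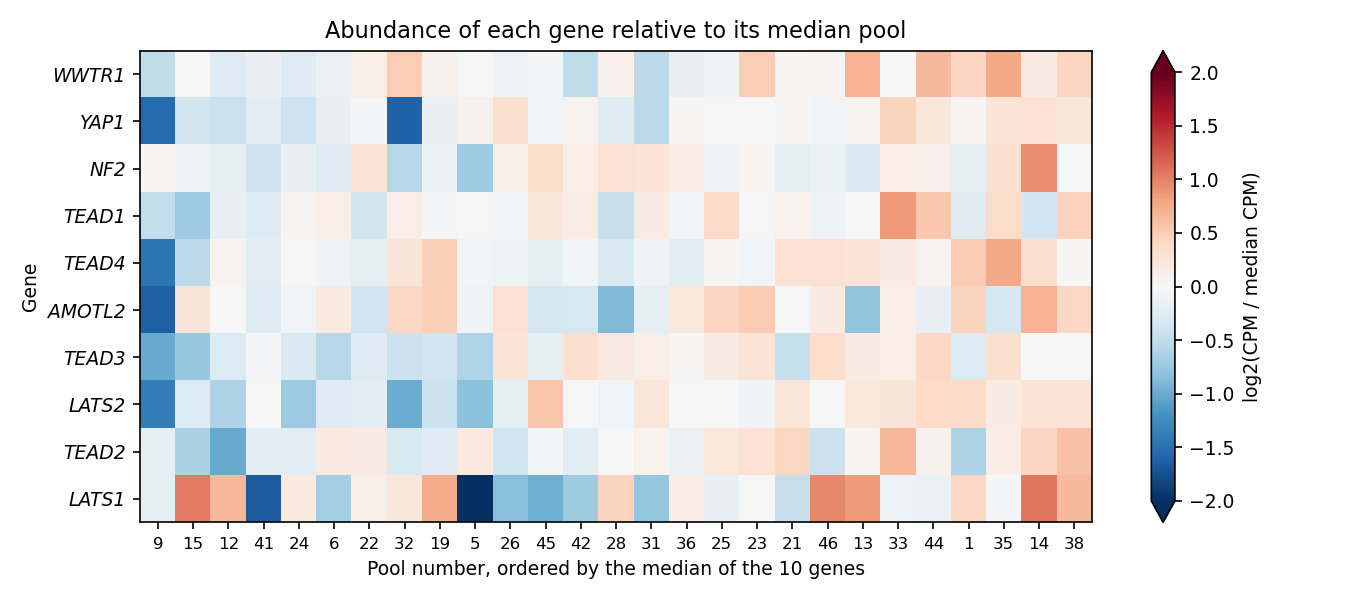
Log2 ratio of the CPM of each gene in each pool to its median over 27 pools, with pools ordered by the median of the 10 ratios and colours ending at -2 and 2. Pool 9, at the left, is low for 9 of 10 genes, and pool 38, at the right, is at or above the median for all 10.

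The 10 genes were next compared with each other over pools. Of their 45 pairs 36 had a positive Spearman rho, with a median of 0.28 and a range from -0.37 to 0.56. None passed Benjamini-Hochberg adjustment over the 45 relations computed (permutation test, two-sided, 100000 resamples), and 11 had an unadjusted p of 0.05 or less, all of them positive with rho of 0.39 or more. Over all 75761895 pairs of retained genes 54.2% were positive, the median rho was 0.03, and 5.87% reached that rho. The pairs share genes and pools, and the count of 11 was not tested against that percentage.

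The pair with the highest rho was YAP1 and LATS2, a kinase of YAP1 that is also known as its target. Their rho was 0.56 (permutation p = 0.00288, adjusted p = 0.106) and Pearson's r of log2(CPM + 1) was 0.73 (permutation p = 4e-05, adjusted p = 0.0018). Without pools 9 and 32, the lowest pools for both genes, r was 0.43, so that much of the r rests on those pools. WWTR1 and TEAD4, a co-activator and its partner, followed with rho of 0.53 (permutation p = 0.00471, adjusted p = 0.106) and r of 0.57 (permutation p = 0.00118, adjusted p = 0.0172). With pools 13 and 35 left out their r was 0.47. This pair depended on the scaling: with CPM from TMM library sizes rho was 0.31 (permutation p = 0.111, adjusted p = 0.332) and r was 0.47 (permutation p = 0.0112, adjusted p = 0.101).

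By Pearson's r 2 pairs with TEAD3 also passed adjustment. TEAD3 and LATS2 had rho of 0.48 and r of 0.63 (permutation p = 0.00051, adjusted p = 0.0115), with r of 0.51 without pools 9 and 15. YAP1 and TEAD3 had rho of 0.46 and r of 0.58 (permutation p = 0.00153, adjusted p = 0.0172), with r of 0.40 without pools 9 and 32.

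Other pairs did not pass by either measure. YAP1 and TEAD2 had rho of 0.50 and r of 0.40, and YAP1 and WWTR1 had rho of 0.40 and r of 0.28. TEAD3 and NF2 had rho of 0.48 and r of 0.39. LATS1 had values of both signs: rho of 0.42 with WWTR1 and 0.39 with TEAD4, but -0.37 with TEAD1 and -0.22 with TEAD2, and 0.00 with its paralogue LATS2.

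**Figure D4:**
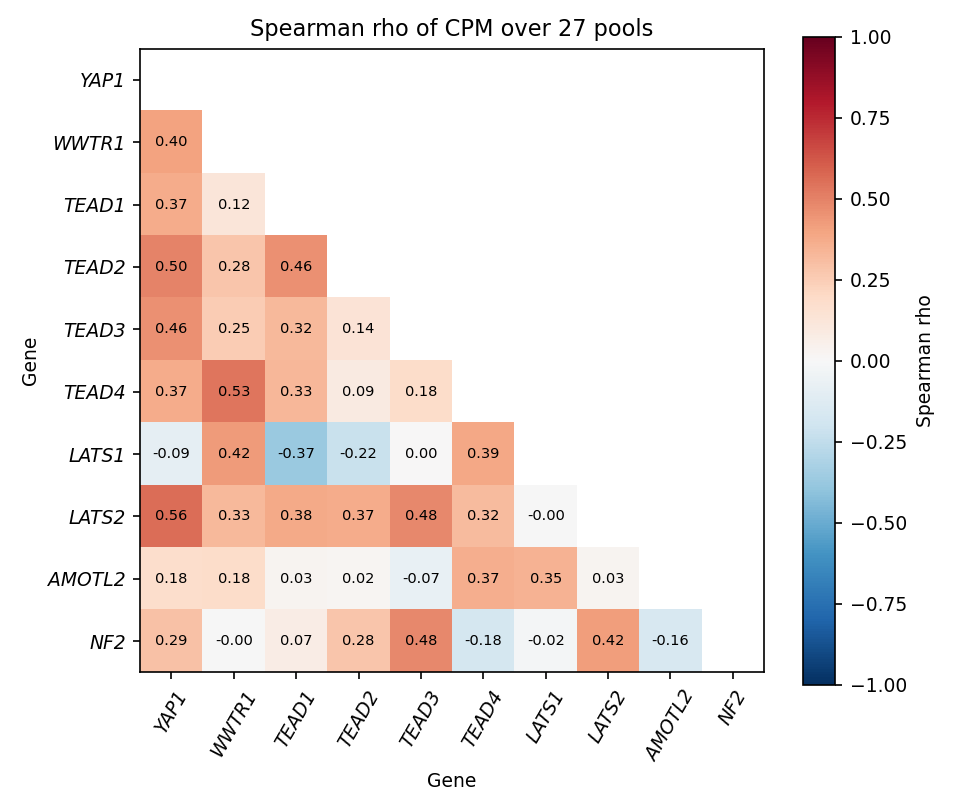
Spearman rho of CPM over 27 pools for the 45 pairs of the 10 genes, coloured from -1 to 1 with the value in each cell. Most cells are positive, with the highest value, 0.56, at YAP1 and LATS2, and the lowest, -0.37, at TEAD1 and LATS1.

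Abundance of the co-activators and TEAD factors was also set against 6 genes known as outputs of the complex. GATA3 and CDX2 are trophectoderm factors, CCN1, CCN2 and ANKRD1 are targets in many cell types, and SOX2 is held down by nuclear YAP1 in mouse trophectoderm. GATA3 had a median of 132 CPM, between 90.5 CPM in pool 12 and 238 CPM in pool 14, whereas CDX2 had a median of 3.62 CPM, between 1.97 and 9.42 CPM. CCN1 had a median of 39.3 CPM, between 15.2 CPM in pool 13 and 96.7 CPM in pool 33. CCN2 and ANKRD1 were the more variable targets: CCN2 ranged from 3.10 CPM in pool 9 to 72.4 CPM in pool 35 and ANKRD1 from 0.0326 CPM in pool 31 to 60.8 CPM in pool 42. SOX2 ranged from 2.82 CPM in pool 9 to 20.5 CPM in pool 32, the pools with the 2 lowest YAP1 values, and YAP1 with SOX2 had rho of -0.04 (permutation p = 0.828, adjusted p = 0.925) and r of -0.12 (permutation p = 0.527, adjusted p = 0.727).

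Of these 36 relations 28 were positive, with a median rho of 0.12, and none passed adjustment over the 36 by rho. An unadjusted p of 0.05 or less was found for 3, all positive. Over all pairs of retained genes 54.2% were positive, 5.87% had a rho of 0.39 or more and 3.87% one of -0.39 or less. The counts of 28 and 3 were not tested against these percentages. TEAD3 with GATA3 had rho of 0.50 (permutation p = 0.00876, adjusted p = 0.315) and r of 0.46 (permutation p = 0.0173, adjusted p = 0.208). With pools 9 and 15 left out r was 0.39. TEAD1 with CCN1 had rho of 0.46 (permutation p = 0.0177, adjusted p = 0.316) and r of 0.50 (permutation p = 0.00726, adjusted p = 0.131). With pools 15 and 33 left out r was 0.35. TEAD4 with CCN2 had rho of 0.43 (permutation p = 0.0263, adjusted p = 0.316) and r of 0.64 (permutation p = 0.00107, adjusted p = 0.0385), but r fell to 0.22 without pools 9 and 35, which hold the lowest and highest values of both genes. With TMM library sizes the adjusted p of that r was 0.0616. The replicate of each pool was not assigned, so no relation was recomputed within batches.

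The make-up of the embryos was examined through marker scores. The trophectoderm score was the mean log2(CPM + 1) of 12 markers, and it ran from 6.05 in pool 32 to 7.22 in pool 28. Each gene was fitted on the score with edgeR's quasi-likelihood test, so that a slope is the log2 change per 1 SD of the score over pools. Of the 10 genes 1 rose with the score and none fell, against 4.28% of the 12298 genes tested that rose and 2.98% that fell.

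The gene that rose was NF2, with a slope of 0.21 (SE 0.052, edgeR adjusted p = 0.013). Its value in pool 14, which has one of the higher scores at 7.15, carried part of this: without that pool the slope was 0.16 (edgeR adjusted p = 0.0619), and without pools 28 and 32, the extremes of the score, it was 0.19 (edgeR adjusted p = 0.0576). WWTR1 had the lowest slope of the 10, -0.13 (SE 0.055, edgeR unadjusted p = 0.028, adjusted p = 0.161). An unadjusted p of 0.05 or less was found for 2 of the 10, NF2 and WWTR1, and for 2791 of the 12298 genes tested. YAP1 had the slope 0.13 (SE 0.082, edgeR adjusted p = 0.346), and TEAD4, the factor linked to trophectoderm in mice, -0.02 (SE 0.069, edgeR adjusted p = 0.881). The slopes of the 10 genes had a median of 0.09, and those of all genes a median of -0.00258.

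**Figure D5:**
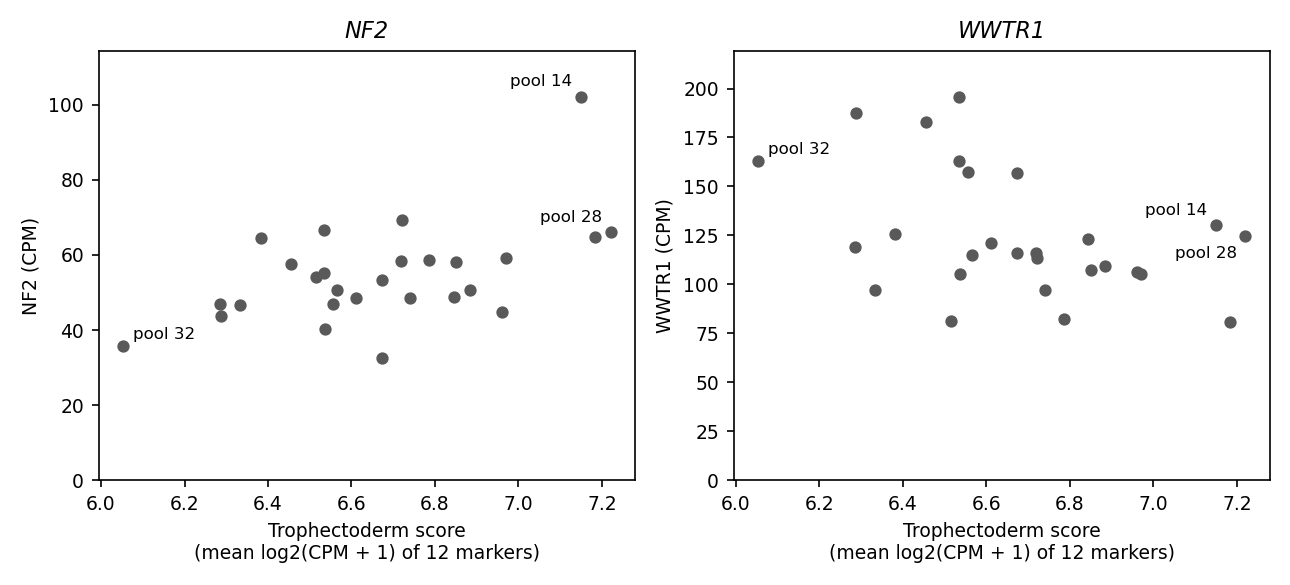
CPM of NF2 (left) and WWTR1 (right) in 27 pools against the trophectoderm score, the mean log2(CPM + 1) of 12 markers, with pools 14, 28 and 32 named. NF2 reaches 102 CPM in pool 14 and is 35.9 CPM in pool 32, which has the lowest score, where WWTR1 is 163 CPM.

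No member passed the edgeR test on the other scores. On the epiblast score the slopes were between -0.08 for LATS2 and 0.12 for LATS1, with none at an unadjusted p of 0.05 or less. Of the 12302 genes tested 1142 had such an unadjusted p, and after adjustment 0.00813% rose and 0.00813% fell. On the hypoblast score all 10 slopes were above 0, against 51.0% of all genes, with a median of 0.14 against 0.00364 over all genes. An unadjusted p of 0.05 or less was found for 2 of the 10, and for 2129 of the 12303 genes tested. The 2 members were LATS2 with 0.19 (edgeR unadjusted p = 0.0323, adjusted p = 0.247) and TEAD3 with 0.18 (edgeR unadjusted p = 0.0153, adjusted p = 0.177). AMOTL2 also had 0.18 (edgeR unadjusted p = 0.0854, adjusted p = 0.362). Of the 12303 genes tested 0.471% rose with the hypoblast score and 0.236% fell. The signs depended in part on pool 9: without it 9 of the 10 slopes were above 0, and no gene of the whole table was called. Without the 2 pools farthest from the median of the score, 8 of the 10 were above 0. In both of these fits 0 members had an edgeR unadjusted p of 0.05 or less. Without pool 9 the slope of TEAD4 went from 0.11 to -0.04, that of YAP1 from 0.17 to 0.04 and that of AMOTL2 from 0.18 to 0.02. WWTR1 went from 0.09 to 0.05, LATS2 from 0.19 to 0.09, TEAD3 from 0.18 to 0.12 and TEAD1 from 0.12 to 0.11. The slopes that rose were those of NF2, from 0.04 to 0.07, LATS1, from 0.16 to 0.22, and TEAD2, from 0.056 to 0.065.

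Sequencing depth was fitted in the same way. On log2 total count the slopes of the 10 genes lay between -0.06 for TEAD1 and 0.05 for AMOTL2, and edgeR called 0.0% of the 12310 genes, with 340 at an unadjusted p of 0.05 or less and 0 called by DESeq2.

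The rest of the pathway was present as well. Of 48 pathway genes listed, members included, 45 were retained, and the 3 that were not were the protocadherins FAT4 and DCHS1 and the receptor AXL. In the kinase cassette STK3, an MST kinase upstream of LATS, had the highest median at 31.3 CPM and the scaffold SAV1 followed at 15.3 CPM. Upstream, the scaffold WWC1 had a median of 58.6 CPM and the kinase TAOK3 57.3 CPM, both above NF2, and RASSF1 had the lowest of the retained genes at 1.05 CPM. The YAP1-binding 14-3-3 proteins YWHAB and YWHAZ had medians of 995 and 727 CPM, and the kinase CSNK1E, which takes part in YAP1 turnover, had 7.54 CPM. VGLL1 and VGLL4, which compete for TEAD factors, had medians of 9.49 and 7.53 CPM, and VGLL3 had 0.857 CPM and was at or under the floor in 4 pools.

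With the trophectoderm score 2 of 43 pathway genes rose by the edgeR test and none fell, CDX2 and GATA3 being left out as markers of that score, a share near the 4.28% of all genes that rose. Beside NF2 this was TAOK3, of the TAO kinases that act on the MST kinases, with a slope of 0.23 (SE 0.060, edgeR adjusted p = 0.0156). TAOK3 ranged from 33.3 CPM in pool 9 to 98.3 CPM in pool 31, and its adjusted p stayed between 0.00552 and 0.0314 over 10 settings. None of the pathway genes passed on the epiblast or hypoblast score or on total count.

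The genes whose pattern over pools was most like each member were outside the pathway list apart from BTRC. Pathway genes were 45 of the 12310 genes retained, so nearly all candidates lay outside the list, and no test was made against that share. Among the 12309 other retained genes, the highest rho over the 27 pools was 0.85 for TEAD3 with RAB11FIP1, followed for TEAD3 by HMGA1 at 0.83. TEAD4 was most like DNMT1, the maintenance DNA methyltransferase, at 0.81 and LASP1 at 0.80. WWTR1 was most like SCPEP1 at 0.81 and GRHL2, a grainyhead factor of epithelia, at 0.80.

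For YAP1 the most similar genes were C28H1orf198 at 0.78 and MPRIP at 0.77, for LATS2 OTUD7B at 0.80 and ASXL1 at 0.76, and for NF2 ERG28 at 0.76 and BCR at 0.74. AMOTL2 was most like CLPTM1L at 0.75 and CORO6 at 0.70, TEAD1 like NSD1 at 0.74 and ZNF710 at 0.72, and TEAD2 like VKORC1L1 at 0.72 and GPR34 at 0.70. LATS1 was most like BTRC, the ubiquitin ligase subunit that acts on YAP1 after LATS phosphorylation, at 0.71 and KLHL18 at 0.70. Each value is the highest or second highest among all those genes, and it is given as a description with no test.

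Read counts do not measure phosphorylation or the place of a protein in the cell, by which the pathway acts on YAP1 and WWTR1.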

How the data were processed

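RNA of 27 pools of 2 blastocysts was made into cDNA with a SMART-Seq v4 3' DE kit and sequenced. Per the labels and methods, the authors trimmed first reads with fastp after FastQC, aligned them by STAR to the ARS-UCD2.0 assembly, and deposited raw counts per gene from featureCounts, without normalization. Tool versions are not given in the sources used here. All 27 columns were matched to pools by number, and treatment was not assigned.

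CPM was calculated from column totals, and a gene was retained at 1 CPM or more in 12 pools. Total counts were between 10517606 and 44253564. Slopes were fitted over all retained genes with edgeR 4.0.16 (TMM, quasi-likelihood test, Benjamini-Hochberg, 0.05), with DESeq2 1.42.0 as an alternative, in R 4.3.3, and markers of a score were left out of its test. Correlations used scipy 1.17.1 in Python 3.11.15. Counts of any pair of pools differed by a chi-square per degree of freedom of at least 23.9, set against counting error only, so no column was counted as a copy of another. Scripts were tested on simulated data. There the trophectoderm slope test called 41 of 100 genes with a true slope of 0.3 and 72 of 100 with 0.6. The changed genes were drawn at random from all retained genes, so these shares are not those for the members. For the members the SE of the trophectoderm slope lay between 0.052 for NF2 and 0.138 for LATS1. A member that was not called may still have a slope that the test missed. Gene positions are RefSeq's. The paper took its blastocysts from fewer replicates of maturation and fertilization than there are pools, so some pools share a replicate. Which pools share a replicate or a culture well was not known here. The tests treat all pools as independent, and p-values measure the spread between pools only.

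Named were the 10 members, of each role group the 2 highest genes and the lowest by median, pathway genes past the threshold (at most 5 a score), the targets and per member the 2 genes most like it. FAT4, DCHS1 and AXL are named because they were not retained. The members and lists were chosen with earlier results of these data known.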

Additional observations from a re-analysis of the deposited data

How the results depend on the processing

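The results were recomputed with other scalings, filters, tests and left-out pools, and 147 of the values compared were kept, while 17 were not. A count was kept if it was unchanged or stayed within 1.5 times. A median level was kept if it moved by less than 1 SD over pools. A named slope was kept if it held its direction and its side of the threshold. A slope that was not called thus counted as kept even when it shrank. That of YAP1 on the hypoblast score, 0.17 and 0.03 without the 2 farthest pools, is a case. Counts of 0 that stayed at 0 are also among the values kept, so the tally is no measure of how firm the results are. Shares do not depend on the scaling and were not recomputed. Slopes of members that were not called changed sign in some fits that left out pools, as on the hypoblast score for TEAD4 (0.11 to -0.04 without pool 9) and AMOTL2 (0.18 to -0.01 without the 2 farthest pools). Leaving out pool 9 or pool 14, and Pearson's r with TMM library sizes, were added after seeing the data. By Pearson's r, with a pseudocount of 1 or of 0.1, 4 member pairs passed adjustment instead of 0 (YAP1 with LATS2 and with TEAD3, TEAD3 with LATS2, WWTR1 with TEAD4), and 1 target relation instead of 0 (TEAD4 with CCN2). With TMM library sizes 3 pairs passed by r, WWTR1 with TEAD4 being lost, and 0 target relations. By rho none passed with TMM library sizes or without pool 9.

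On the trophectoderm score, 0 members passed instead of 1 without pool 14 and also without the 2 pools farthest from the median, since NF2 then missed the threshold, and 1483 genes instead of 893 were called when all genes with any count were tested. On the epiblast score 2 genes were called by edgeR, 37 by DESeq2 and 576 with any count. On the hypoblast score the counts were 87 by edgeR, 503 by DESeq2, 808 with any count, and 0 both without pool 9 and without the 2 farthest pools. On total count any count gave 561 instead of 0. The cause of these changes was not tested, and the fits with any count test more genes.

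No paired analysis was possible because the labels put no pool in a treatment or replicate. Levels and shares per kilobase were planned and not run, for lack of exon lengths here. The depth limits LATS1 most, at 28 reads in its lowest pool.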

Other observations

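The other angiomotins and the LIM proteins of the pathway list, fitted on the scores without passing, had the following levels. AMOT had a median of 22.4 CPM, between 7.60 CPM in pool 15 and 47.0 CPM in pool 33, and exceeded AMOTL2 at the median, while AMOTL1 had a median of 1.77 CPM, between 0.679 CPM in pool 14 and 5.14 CPM in pool 33. The LIM proteins that bind LATS kinases were low, with medians of 4.89 CPM for AJUBA, 5.74 CPM for WTIP and 2.00 CPM for LIMD1. AJUBA was lowest in pool 14, at 0.713 CPM, the pool with the most NF2, AMOTL2 and LATS1. These genes were chosen after seeing their values, and no test was made of these differences.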
